A study of Mus musculus with 7 samples.

Results

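The genes described here are a short list of surface receptors, adhesion molecules and regulators by which muscle satellite cells are recognised or held at rest: Calcr, Spry1, Chodl, Vcam1, Ncam1 and Peg3. They were taken from the deposited expression table by gene symbol. Of the 6 genes listed, 5 were analysed among the 23930 genes of the table, and Spry1 was not analysed here. Each was set against Pax7, the paired-box transcription factor that marks satellite cells. The Pax7 locus drives the Cre recombinase that switches on the reporter used to sort the cells.

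The study asked how satellite cells respond to chronic hypercapnia, an excess of carbon dioxide such as severe lung disease brings. Cells from 3 normocapnia libraries (NC1 to NC3, mice kept in room air) and 4 hypercapnia libraries (HC1 to HC4, mice kept in a chamber with raised carbon dioxide) were compared. All mice, controls included, carried the inducible Pax7-GFP reporter (Pax7-Cre+/- with Lox-GFP+/+), were given tamoxifen from 12 weeks of age, were exposed for 4 weeks and were collected at 16 weeks. The study's methods describe cardiotoxin injury of leg muscles in both groups before the cells were sorted, which the sample labels do not state. GFP marks every cell in which Cre acted and all its descendants, so cells that have since left the satellite state keep the label. The genotype label of NC1 gives C57BL/6, and the number after the slash runs up by 1 in each later sample to C57BL/12 in HC4. The labels do not say whether each library is 1 animal, so p-values measure the spread between these libraries, part of which may be technical.

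Satellite cells lie between the myofiber and its basal lamina and stay out of the cell cycle until the muscle is damaged. At rest they display the calcitonin receptor, and signalling from it through cyclic AMP is known to hold them in place and out of division. When they activate they lose it, turn on Myod1, divide and then either fuse or return to rest. Vcam1 and Ncam1 are adhesion molecules of the immunoglobulin family used to sort these cells, Chodl (chondrolectin) is a membrane protein with a C-type lectin domain, Spry1 is an inhibitor of growth factor receptor signalling, and Peg3 (also called Pw1) is an imprinted zinc finger gene of muscle progenitors.

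Libraries held 14527445 to 23388710 reads, so 1 read was worth 0.0428 to 0.0688 RPM (reads scaled to a total of 1000000 a library) and 3 reads, taken as the floor, 0.128 to 0.207 RPM. Satellite cell markers were present in every library, but their summed level ran from 44.7 RPM in NC3 and 48.9 RPM in NC2 to 1266 RPM in NC1, with 131 to 398 RPM in the hypercapnia libraries. Macrophage markers, led by Lyz2, summed to 10916 RPM in NC1, 17617 RPM in NC2, 32931 RPM in NC3 and 17888 to 22533 RPM in hypercapnia, and 9 of 10 were above 0 in all libraries. Adgre1, which encodes the macrophage marker F4/80, measured 70.5 to 149 RPM in normocapnia and 151 to 429 RPM in hypercapnia, with the groups apart. Among the other defining markers, S100a8 of neutrophils ran from 6.63 to 52.9 RPM over the 7 libraries, Pdgfra of fibro-adipogenic cells from 3.37 to 13.7, Rgs5 of pericytes from 8.49 to 93.1 and Acta1 of myofibers from 4.75 to 402 RPM, all with overlapping groups. The most abundant genes of those lists were Csf3r, Dcn, Acta2 and Tnnt3, Mbp was that of the Schwann list, and Klrb1c led the natural killer and T cell list at 0.344 to 7.36 RPM, where Ncr1, its defining gene, was at most 0.535 RPM. NC1 and NC3 stood at opposite ends of the satellite and macrophage sums, and the members' differences between the groups are given with and without each. In bulk RNA from sorted cells, fewer cells of a type and less RNA per cell cannot be told apart.

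Pax7 itself measured 268 RPM in NC1, 8.25 in NC2 and 4.34 in NC3, against 21.5 in HC1, 20.1 in HC2, 79.5 in HC3 and 59.7 in HC4. The normocapnia libraries therefore lay on both sides of all the hypercapnia libraries. On the log2(RPM + 1) scale the limma difference, hypercapnia minus normocapnia, was 0.72 (SE 1.51, 95% interval -3.06 to 4.50, adjusted p = 0.976). It was 2.47 without NC1 and -0.355 without NC3. With all 7 libraries, edgeR (filtered, -0.84) and DESeq2 (-0.87) also put Pax7 below 0.

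RefSeq promoter sequences were found for 3 of the 5 analysed members, and those of Calcr and Chodl, whose levels ran alike across the libraries, are shown beside that of Peg3, whose level ran with Pax7. Each runs over the 250 bases before an annotated transcription start in GRCm38.p6, written 5′ to 3′ on the strand of the gene, the Calcr start having 2 alternatives. Capitals mark matches, on either strand, to CAGCTG or CAGGTG (E-boxes, to which MYOD1 and related factors bind), TGGGAA (the core letters for RBPJ, the Notch effector) or TGACGTCA (the cyclic AMP response element).
Calcr, minus strand, chr6:3763624-3763873: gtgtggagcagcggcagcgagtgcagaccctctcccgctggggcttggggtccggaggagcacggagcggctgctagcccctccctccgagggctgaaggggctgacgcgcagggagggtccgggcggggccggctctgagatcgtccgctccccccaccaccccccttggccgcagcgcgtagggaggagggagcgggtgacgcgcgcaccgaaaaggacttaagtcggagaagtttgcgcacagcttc
Calcr, minus strand, chr6:3764714-3764963: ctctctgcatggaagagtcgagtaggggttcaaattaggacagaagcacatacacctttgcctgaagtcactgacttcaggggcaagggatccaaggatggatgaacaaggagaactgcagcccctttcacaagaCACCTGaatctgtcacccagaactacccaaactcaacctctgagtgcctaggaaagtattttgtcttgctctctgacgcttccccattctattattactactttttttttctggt
Chodl, plus strand, chr16:78930698-78930947: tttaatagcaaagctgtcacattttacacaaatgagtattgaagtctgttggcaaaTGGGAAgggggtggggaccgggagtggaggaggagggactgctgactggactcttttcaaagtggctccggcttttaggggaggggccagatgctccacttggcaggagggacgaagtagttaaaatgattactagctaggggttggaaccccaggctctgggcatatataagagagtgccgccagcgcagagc
Peg3, minus strand, chr7:6730420-6730669: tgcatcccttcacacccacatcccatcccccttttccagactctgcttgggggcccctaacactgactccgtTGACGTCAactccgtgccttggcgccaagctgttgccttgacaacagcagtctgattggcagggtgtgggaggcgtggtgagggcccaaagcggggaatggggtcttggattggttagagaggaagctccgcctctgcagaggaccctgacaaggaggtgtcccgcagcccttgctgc
The second Calcr window held 1 E-box, the Chodl window 1 TGGGAA and the Peg3 window 1 TGACGTCA, while the first Calcr window and that of Pax7 held none of the 4. Of 32851 RefSeq windows of the same length, 13.0% held CAGCTG, 17.2% CAGGTG, 21.6% TGGGAA and 1.55% TGACGTCA, counting both strands. GC content was 70.8% and 46.0% in the Calcr windows, 52.0% in that of Chodl and 60.4% in that of Peg3. The matches describe letters only, and no motif was held by both a Calcr window and the Chodl window.

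None of the 5 genes was called different between the groups, and for each the groups overlapped. A gene was called when limma gave an unadjusted p below 0.05 with a fold above 1.5, which 0 of 5 members met and which 2.57% of all genes met (615 of 23930). No gene of the table passed Benjamini-Hochberg adjustment in limma, where 1114 genes had an unadjusted p under 0.05, and edgeR also passed 0 while DESeq2 passed 29. NC1 was the highest library for all 5 genes, and the plot of levels by library shows the wide spread inside each group.

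**Figure D1:**
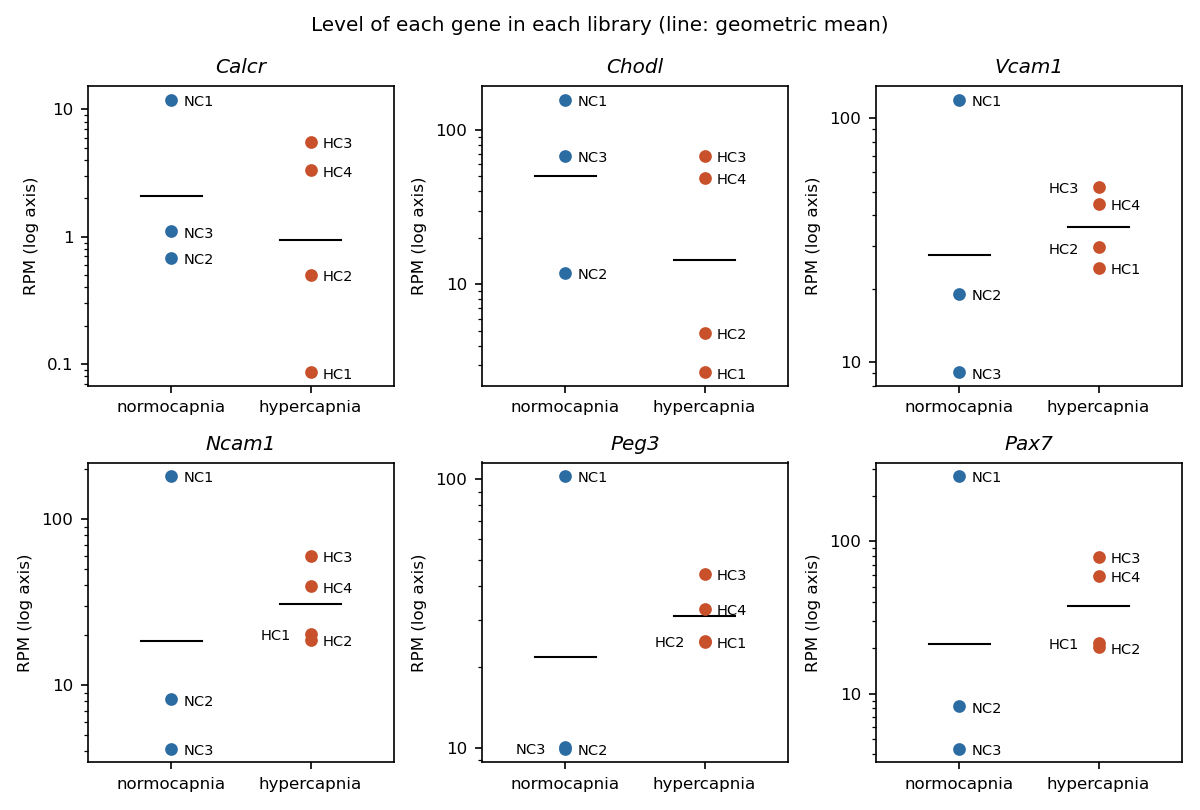
RPM (log axis) of Calcr, Chodl, Vcam1, Ncam1, Peg3 and Pax7 in each library, 1 point a library, with the geometric mean of 3 normocapnia or 4 hypercapnia libraries as a line. NC1 is the highest point in every panel, NC2 and NC3 lie below all hypercapnia libraries for Vcam1, Ncam1, Peg3 and Pax7, and HC1 and HC2 are the lowest points for Calcr and Chodl.

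Calcr encodes the calcitonin receptor, a G protein-coupled receptor of resting satellite cells. It measured 12.0 RPM in NC1, 0.684 in NC2 and 1.10 in NC3, and 0.086 in HC1, 0.502 in HC2, 5.56 in HC3 and 3.32 in HC4. The reads behind these values were 268, 16 and 16 in normocapnia and 2, 10, 89 and 49 in hypercapnia, so NC2, NC3, HC1 and HC2 rest on few reads. The HC1 value lies below the floor of 3 reads, and its 95% Poisson interval, which covers counting error only, runs from 0.0104 to 0.309 RPM. HC1 was the lowest of the 7 libraries and HC2 the next, while HC3 and HC4 were above NC2 and NC3. The log2 difference was -0.46 (SE 1.01, 95% interval -2.99 to 2.08, limma adjusted p = 0.983), turning to 0.47 without NC1 and -0.84 without NC3.

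Chodl followed nearly the same order of libraries as Calcr, and rested on 63 to 3507 reads. It measured 156 RPM in NC1, 11.8 in NC2 and 67.4 in NC3, and 2.70 in HC1, 4.87 in HC2, 68.0 in HC3 and 48.5 in HC4. HC1 and HC2 were below all normocapnia libraries, but HC3 and HC4 stood beside NC3 and above NC2. The log2 difference of -1.65 was the largest of the 5 in size (SE 1.47, 95% interval -5.32 to 2.02, limma adjusted p = 0.915), and it was -0.84 without NC1 and -1.45 without NC3. Inside the hypercapnia group Chodl spanned a 25.2-fold range and Calcr a 64.7-fold range, whose lower end is the 2 Calcr reads of HC1, below the floor.

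Vcam1 is the receptor that integrin alpha4 beta1 binds. It measured 119 RPM in NC1, 19.1 in NC2 and 9.09 in NC3, and 24.4 in HC1, 29.5 in HC2, 52.2 in HC3 and 44.6 in HC4. The log2 difference was 0.35 (SE 0.89, 95% interval -1.88 to 2.58, limma adjusted p = 0.998). Endothelial cells also make Vcam1, and Pecam1, an endothelial marker, ran from 26.2 RPM in HC2 to 317 RPM in HC3, with 28.2 in HC1 and 229 in HC4. The 10 endothelial markers, all above 0 in every library, summed to 95.2 to 255 RPM in normocapnia and 55.5 to 599 RPM in hypercapnia, and their part in the Vcam1 values was not tested.

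Ncam1 had the widest normocapnia range of the adhesion genes, at 182 RPM in NC1, 8.21 in NC2 and 4.13 in NC3. The hypercapnia libraries gave 20.4 RPM in HC1, 18.7 in HC2, 60.2 in HC3 and 39.5 in HC4, all between NC2 and NC1. Schwann cells can also make Ncam1. The 6 Schwann markers summed to 10.3 to 35.01 RPM in normocapnia and 12.9 to 109.7 RPM in hypercapnia, all 6 above 0 in every library, and their part in the Ncam1 values was not tested. The log2 difference was 0.64 (SE 1.34, 95% interval -2.72 to 4.00, limma adjusted p = 0.976).

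Peg3 measured 103 RPM in NC1, 9.92 in NC2 and 10.1 in NC3, and 24.8 in HC1, 24.97 in HC2, 44.5 in HC3 and 33.0 in HC4. The hypercapnia libraries differed by less than the normocapnia libraries did, and none reached NC1 or fell to NC2. The log2 difference was 0.46 (SE 0.89, 95% interval -1.76 to 2.68, limma adjusted p = 0.963).

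The values of these 3 genes depended on single normocapnia libraries. Without NC1, Ncam1 was called higher in hypercapnia at 2.22 log2 (SE 0.60, limma adjusted p = 0.3), Peg3 at 1.54 (SE 0.28, limma adjusted p = 0.178) and Vcam1 at 1.38 (SE 0.45, limma adjusted p = 0.385), each with the 4 hypercapnia libraries above NC2 and NC3. Pax7 was called with them, at 2.47 (SE 0.73, limma adjusted p = 0.339), and 6.25% of all genes were called higher in the same comparison. The share of all genes whose groups lay apart in this comparison was not counted. Calcr and Chodl were not called and their groups still overlapped. Without NC3 the values fell below 0, to -0.36 for Ncam1, -0.08 for Peg3 and -0.41 for Vcam1, Peg3 was also below 0 without NC2 (-0.0865), and the count models edgeR and DESeq2 also put these 3 genes below 0 with all 7 libraries. The direction of Vcam1, Ncam1 and Peg3 between the groups is therefore not fixed by these libraries.

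**Figure D2:**
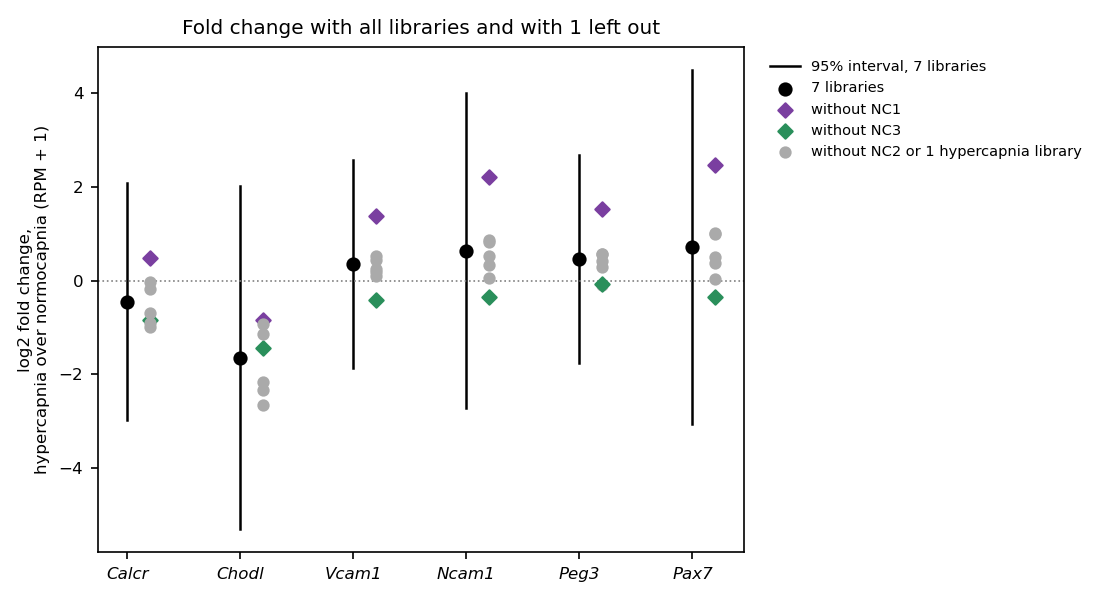
Log2 fold change, hypercapnia over normocapnia, of each gene on log2(RPM + 1), with all 7 libraries (black point and 95% interval) and with each library left out in turn (coloured and grey points). Every interval spans 0, and leaving out NC1 moves Vcam1, Ncam1, Peg3 and Pax7 up to between 1.38 and 2.47.

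The 5 genes were then set against Pax7 library by library. Ncam1, Vcam1 and Peg3 varied with Pax7, whereas for Chodl no relation passed the test and for Calcr r passed the test with all libraries but rho did not. Whether the r values differ from each other was not tested. Over the 7 libraries, Pearson's r on log2(RPM + 1) was 0.998 for Ncam1 (Spearman's rho 1, two-sided exact permutation p = 0.000198 for r and 0.000397 for rho). For Vcam1 r was 0.985 and rho 0.964 (exact permutation p = 0.000397 and 0.00278). For Peg3 r was 0.981 and rho 0.929 (exact permutation p = 0.000794 and 0.00675). For Calcr r was 0.837 and rho 0.643 (exact permutation p = 0.0193 and 0.139), and for Chodl r was 0.490 and rho 0.5 (exact permutation p = 0.261 and 0.267). Permutation tests, of r and of rho, were run for these 5 genes alone. Groups of 3 and 4 libraries are too small for a value within each group.

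Leaving out the 2 libraries farthest from the median of Pax7, NC1 and NC3, left r at 0.994 for Ncam1, 0.980 for Vcam1 and 0.946 for Peg3, with exact permutation p of 0.00833, 0.0167 and 0.0167. Their rho was 1, 0.9 and 0.9, with exact permutation p of 0.0167, 0.0833 and 0.0833. For Calcr r was then 0.830, close to its value over all 7 libraries, with an exact permutation p of 0.125 over the 5 that remained. Without NC1 alone it was 0.669 (exact permutation p = 0.151). For Chodl r depended on single libraries: without NC3, where Pax7 was lowest and Chodl was 67.4 RPM, it was 0.847 (exact permutation p = 0.0361), and without NC1 it was 0.174 (exact permutation p = 0.721). Among the 8228 genes averaging 10 RPM or more, 8.22% had r above 0.9 with Pax7 and the median was 0.361, so many genes of other kinds also followed it. In that order Ncam1 stood at place 4, Vcam1 at 47, Peg3 at 75 and Chodl at 3422.

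**Figure D3:**
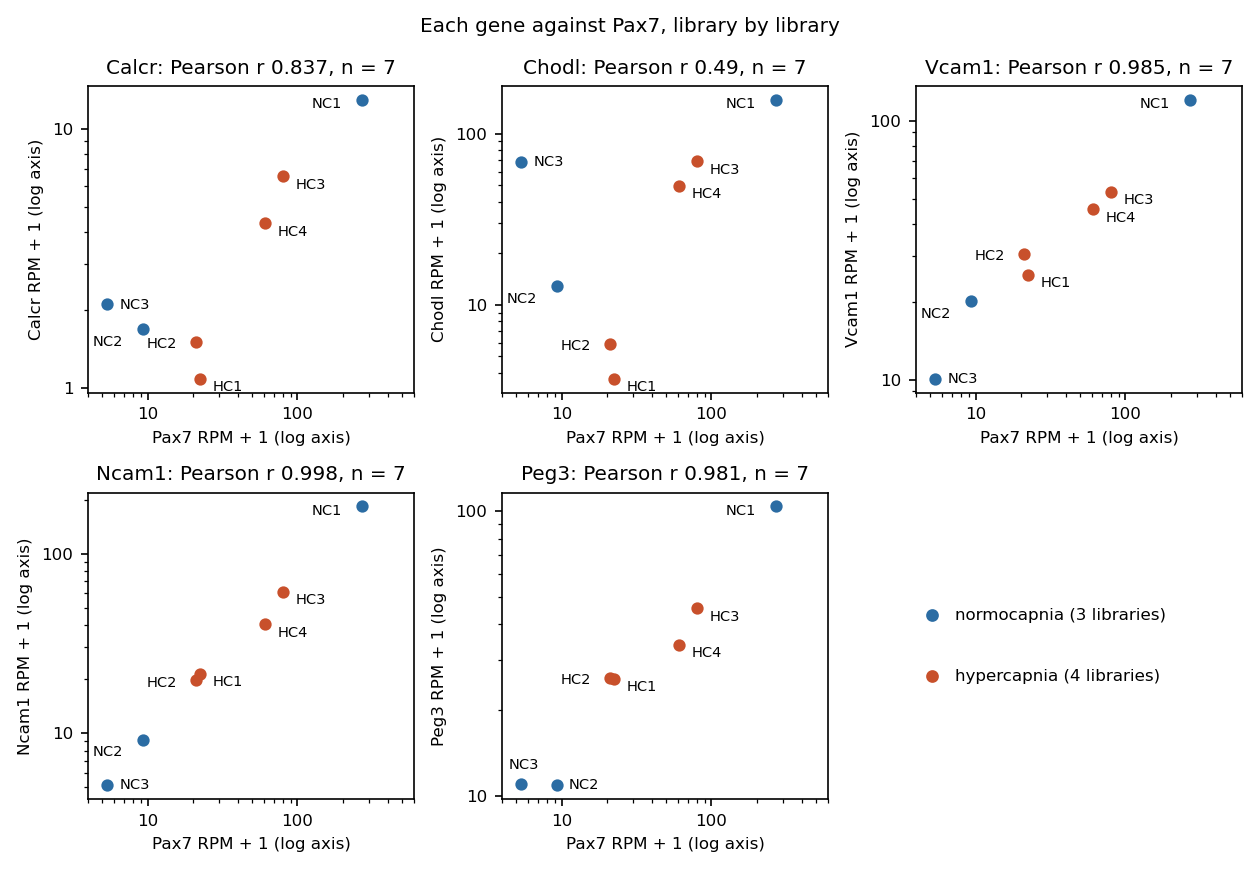
RPM + 1 of each gene against that of Pax7 (both axes log), 1 point a library, with Pearson's r. Ncam1, Vcam1 and Peg3 line up with Pax7, while for Chodl NC3 lies far above and HC1 and HC2 lie below the other libraries.

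The slope on the log scale was 0.887 for Ncam1, meaning that it changed nearly in step with Pax7, and 0.578 for Vcam1 and 0.577 for Peg3, meaning that they spanned a narrower range than Pax7. The same can be read from reads per 100 Pax7 reads, a ratio that drops library size and is comparable between libraries for 1 gene, but not between genes, since each amplicon has its own yield. Ncam1 gave 67.9, 99.5 and 95.2 reads per 100 Pax7 reads in normocapnia and 94.8, 93.0, 75.7 and 66.2 in hypercapnia, in the order of the library numbers. This was the steadiest ratio of the 5, although Ncam1 itself spanned 4.13 to 182 RPM. Vcam1 gave 44.4, 232 and 210 reads per 100 Pax7 reads in normocapnia and 113, 147, 65.6 and 74.7 in hypercapnia. Peg3 gave 38.3, 120 and 232 in normocapnia and 115, 124, 56.0 and 55.3 in hypercapnia. For all 3 genes, the libraries with the most Pax7 (NC1, HC3 and HC4) had the lowest ratios.

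Relative to Pax7 in the same library, none of the 5 differences between the groups passed the test. The difference between group means of log2(RPM + 1), each gene minus Pax7, was -0.08 for Ncam1 (exact permutation p = 0.686), -0.26 for Peg3 (exact permutation p = 0.686) and -0.37 for Vcam1 (exact permutation p = 0.657), with 3 and 4 libraries, two-sided, over the 35 possible assignments, where the smallest possible p is 0.0286. The SDs of these log2 differences from Pax7 over the libraries of a group were 0.303 in normocapnia and 0.246 in hypercapnia for Ncam1, against 1.26 and 0.523 for Vcam1 and 1.23 and 0.623 for Peg3.

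Calcr and Chodl had the largest differences relative to Pax7, both towards lower ratios in hypercapnia, but within the spread of the libraries. Calcr gave 4.46, 8.29 and 25.4 reads per 100 Pax7 reads in normocapnia and 0.398, 2.50, 6.99 and 5.56 in hypercapnia. On the log2(RPM + 1) scale, where the pseudocount compresses ratios of genes near the floor, Calcr minus Pax7 was -2.73 ± 1.53 (SD, n = 3) in normocapnia and -3.90 ± 0.33 (SD, n = 4) in hypercapnia, a difference of -1.18 (exact permutation p = 0.229). With a pseudocount of 0.1 RPM the difference was -1.71, and with 5 RPM -0.684. Chodl gave 58.3, 143.5 and 1554 reads per 100 Pax7 reads in normocapnia and 12.5, 24.2, 85.6 and 81.4 in hypercapnia. On the same log2(RPM + 1) scale, Chodl minus Pax7 was 1.13 ± 2.30 (SD, n = 3) in normocapnia and -1.24 ± 1.18 (SD, n = 4) in hypercapnia, a difference of -2.37 (exact permutation p = 0.143). Without NC1, which has the lowest normocapnia ratio for both, the differences were -2.0 for Calcr and -3.32 for Chodl, each with an exact permutation p of 0.0667, the smallest that 2 against 4 libraries allow. Without NC3, which has the highest ratio for both, they were -0.486 for Calcr (exact permutation p = 0.667) and -1.09 for Chodl (exact permutation p = 0.333).

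**Figure D4:**
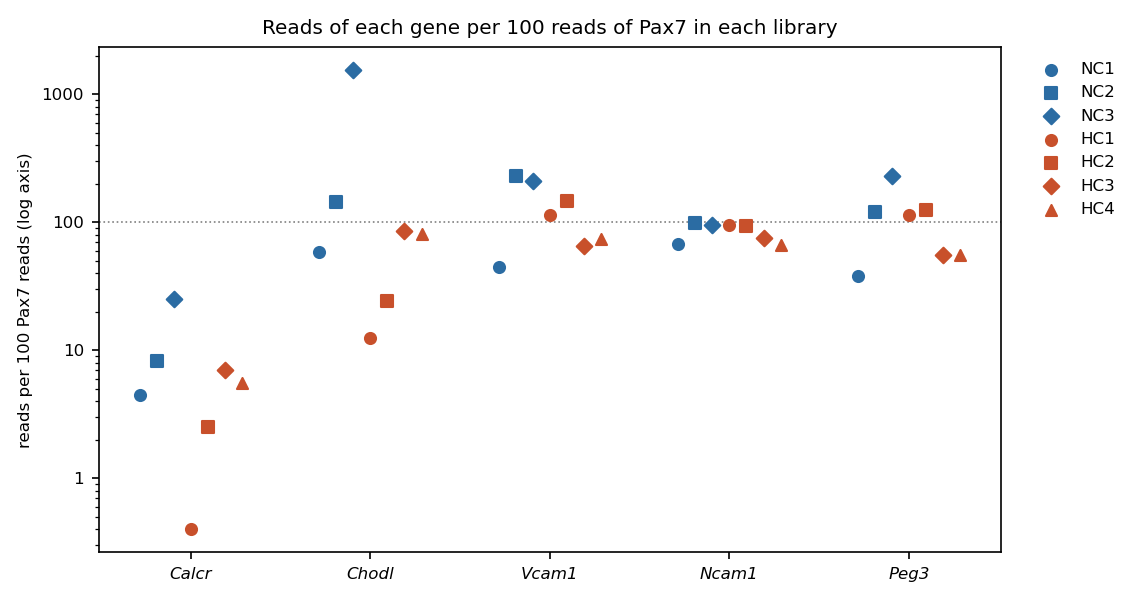
Reads of each gene per 100 reads of Pax7 (log axis) in each library, normocapnia in blue and hypercapnia in orange, with a dotted line at 100. Ncam1 stays between 66.2 and 99.5 in all 7 libraries, whereas Chodl runs from 12.5 in HC1 to 1554 in NC3 and Calcr from 0.398 in HC1 to 25.4 in NC3.

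Counting error was wider for Calcr than for Chodl, but in both the intervals at the ends of the range lay apart. Of the reads of Chodl and Pax7 together, Chodl made up 94.0% in NC3 (95% exact binomial interval 92.3 to 95.3) and 11.1% in HC1 (8.66 to 14.0). Of the reads of Calcr and Pax7 together, Calcr made up 20.3% in NC3 (95% exact binomial interval 12.0 to 30.8), from 16 and 63 reads, and 0.396% in HC1 (0.048 to 1.42), from 2 and 503 reads. HC3 and HC4, at 6.54% and 5.27%, had intervals that overlapped each other and that of NC2, at 7.66%.

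Other cell types varied in the libraries where Calcr and Chodl were low. HC1 and HC2 had the lowest Pecam1 and the lowest Dcn, a fibroblast gene that measured 188 and 169 RPM there, against 528 to 890 RPM in normocapnia and 1050 and 1356 RPM in HC3 and HC4. Adgre1 was highest in HC1 and HC2, at 392 and 429 RPM, against 151 and 184 RPM in HC3 and HC4 and less in normocapnia. The macrophage sum, at 22533 and 19016 RPM in HC1 and HC2, was below the 32931 RPM of NC3. The 10 fibro-adipogenic markers summed to 1099 to 1991 RPM in normocapnia and 992 to 2460 RPM in hypercapnia, and all were above 0 in every library. In NC3, where Chodl was high and Pax7 low, the markers differed: Dcn, at 890 RPM, was the highest of the normocapnia group, and the fibro-adipogenic sum, at 1099 RPM, was the lowest of that group and close to the 1094 RPM of HC1. The part of other cells in the Calcr and Chodl values was not tested.

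Among themselves, Calcr and Chodl, with the promoter windows given earlier, were alike (Pearson's r 0.877, rho 0.964), and so were Vcam1, Ncam1 and Peg3 (r 0.958 to 0.988), while Chodl with each of those 3 gave r of 0.422 to 0.451. Calcr with each of the same 3 gave r of 0.791 to 0.815, so it was like both. These values describe 7 shared libraries and carry no test. The genes most like each member, among those averaging 10 RPM or more, were Nr1d1, Sgce and Cdc42bpa for Calcr (r 0.994 to 0.992), and Foxk2, Eif2ak4 and Ptp4a3 for Chodl (r 0.990 to 0.979). Nr1d1, a nuclear receptor of the circadian clock, was lowest in HC1 and HC2, as Calcr was. Ptp4a3, a tyrosine phosphatase, matched Chodl in having NC3 near the top, at 62.5 RPM against 66.9 in NC1 and 16.6 in HC2. Vcam1 was most like Ajuba, Stbd1 and Phldb2 (r 0.996), and Ncam1 most like Nedd4, Pax7 and Rbm24 (r 0.999 to 0.997). Peg3 was most like Cdh15, the M-cadherin of satellite cells, and then Six4 and Fubp3 (r 0.996 to 0.991).

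Other identity and niche genes of satellite cells mostly peaked in NC1, as Pax7 did. Of 23 such genes, 0 were called in either direction, beside 2.57% of all genes. Their median log2 difference was 0.11, beside 0.02 over all genes and 0.16 over those averaging 1 RPM or more. NC1 was the highest library for 17 of the 22 averaging 1 RPM or more, beside 3927 of 12504 such genes in the table, and without it the list median was 1.30. Sdc3, a heparan sulfate proteoglycan and the most abundant of them, ran the other way, at 282 RPM in NC1, 758 in NC2 and 1643 in NC3 and 347 to 867 in hypercapnia. Sdc4 (-0.51, SE 0.21), Cxcr4 (-0.39, SE 0.16) and Pax3 (-0.60, SE 0.43) had the smallest p of the list, each with a limma adjusted p of 0.915. Without NC1, 5 were called higher (Pax7, Cdh15, Cdh2, Itga7 and Fgfr4) and 0 lower, beside 6.25% and 2.07% of all genes.

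Of the 12 genes of myogenic activation and differentiation, 9 were in the table and 0 were called, beside 2.57% of all genes. Their median log2 difference was 0.25, or 2.09 without NC1. Myod1, the factor that commits satellite cells to the muscle fate, measured 302 RPM in NC1, 26.5 in NC2, 7.92 in NC3 and 87.2 to 257 RPM in hypercapnia (1.76 log2, SE 1.26, limma adjusted p = 0.915). Ccnd1, a cyclin of cell cycle entry, gave 1.43 (SE 0.93) and Mef2c, a differentiation factor, -0.49 (SE 0.17), both with a limma adjusted p of 0.915. Des (desmin), the most abundant, gave 0.25 (SE 1.28), or 1.63 without NC1. Without NC1, 4 of the 9 (Myod1, Myog, Ccnd1 and Mki67) were called higher, beside 6.25% of all genes.

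**Figure D5:**
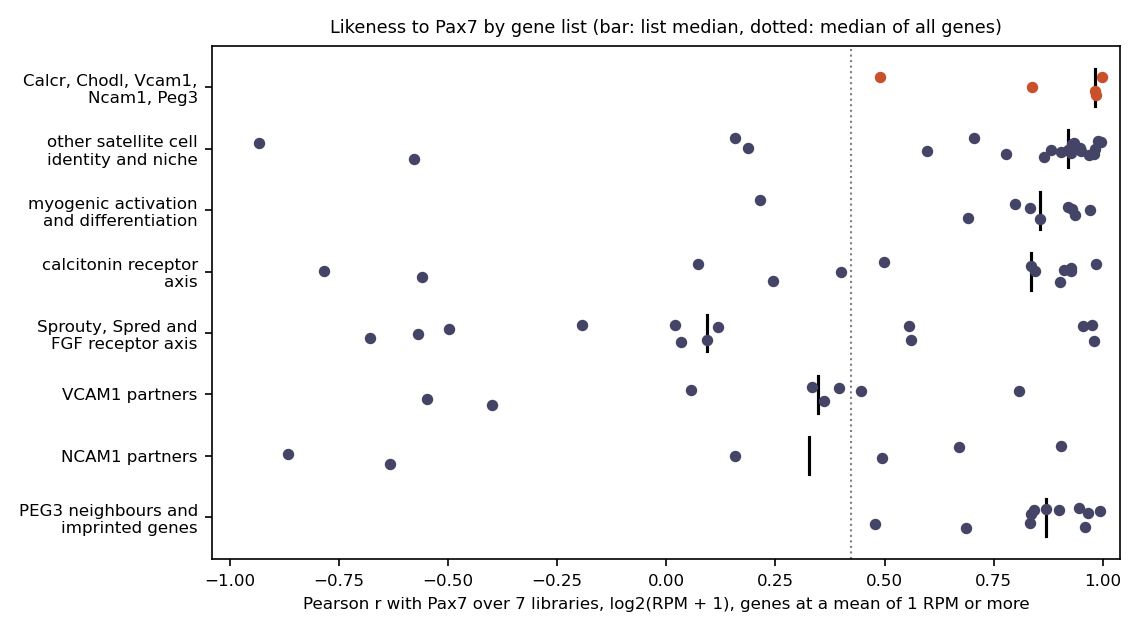
Pearson's r with Pax7 over the 7 libraries for each gene averaging 1 RPM or more, by gene list, with the median of each list as a bar and the median of all genes as a dotted line. The other satellite cell genes lie mostly near 1 (median 0.92), whereas the Sprouty and FGF receptor list centres near 0 (median 0.094).

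Likeness to Pax7 is described for the lists by counts alone, and the lists overlapped. Of genes averaging 1 RPM or more, 9.75% had r above 0.9 with Pax7 and the median r was 0.423. Pax7 itself left out, the share was 12 of 21 for the other satellite cell genes, 4 of 9 for myogenic activation, 5 of 13 for the calcitonin receptor axis, 4 of 11 for imprinted genes, 3 of 13 for Sprouty and FGF receptor genes, 1 of 6 for NCAM1 partners and 0 of 8 for VCAM1 partners. Sdc3 was the 1 gene of the satellite list with r below -0.9, at -0.934.

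Around the calcitonin receptor, 1 of 16 genes was called. Ramp3, a protein that pairs with the receptor and alters which hormone it binds, was lower in hypercapnia, where 1.14% of all genes were called lower. It measured 1.47 RPM in NC1, 0.898 in NC2 and 1.03 in NC3, and 0.128 in HC1, 0 in HC2, 0.687 in HC3 and 0.609 in HC4, with the groups apart but the values near the floor. The difference was -0.68 (SE 0.23, limma adjusted p = 0.915). The call was lost at either other pseudocount, with edgeR and DESeq2 and with replicate number as a block. The filter on low values removed Ramp3, which averaged under 1 RPM. The call was also lost without NC1 (-0.57), without NC3 (-0.71), without HC1 (-0.60) and without HC2 (-0.55). The related receptor Calcrl gave -0.49 (SE 0.38) and Lats2, a kinase of the Hippo pathway, -0.49 (SE 0.25), neither of them called. Prkaca, the catalytic subunit of the kinase that cyclic AMP turns on, gave 0.41 (SE 0.41). Without NC1, Prkaca was called higher and Lats2 lower, beside 6.25% and 2.07% of all genes. The median of the list was 0.03.

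In the family of Spry1, 14 of 15 listed genes of the Sprouty, Spred and FGF receptor axis were in the table. Fgf2, a growth factor that activates satellite cells, was the 1 called, beside 2.57% of all genes, and it was lower: normocapnia libraries 1, 2 and 3 gave 6.33, 6.03 and 6.06 RPM, and hypercapnia libraries 1 to 4 gave 2.23, 1.16, 4.00 and 2.98 RPM. The normocapnia libraries agreed closely and lay above all 4 hypercapnia libraries, a difference of -1.06 (SE 0.29, limma adjusted p = 0.877), and the call was lost at a pseudocount of 5 RPM. Spry2 (62.6 to 145 RPM in normocapnia, 72.9 to 118 in hypercapnia) and Spry4 (8.25 to 67.3 and 14.6 to 51.5), the Sprouty genes measured, overlapped between the groups and had r with Pax7 of 0.980 and 0.954. Spred1 (-0.52, SE 0.21), an inhibitor related to the Sprouty proteins, was not called with 7 libraries. Without NC1 it was called lower with Fgf2, beside 2.07% of all genes, and Etv4 was called higher, beside 6.25%. The median of the list was -0.24.

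Of 9 partners and relatives of VCAM1, 1 was called. Icam2, an adhesion molecule of endothelium and leukocytes, was higher in hypercapnia, as were 1.43% of all genes. It measured 7.49, 6.73, 10.6 and 6.03 RPM in the hypercapnia libraries and 3.21, 4.23 and 1.45 RPM in the normocapnia libraries, with the groups apart. The difference was 1.18 (SE 0.31, limma adjusted p = 0.843), and the call was lost with replicate number as a block. The integrin subunits that bind VCAM1 were not called, Itgb1 giving -0.55 (SE 0.14, limma adjusted p = 0.836) at a fold under 1.5 and Itga9 giving 1.10 (SE 0.70). Without NC1, Itga9 was called higher as well as Icam2, beside 6.25% of all genes. The median of the list was 0.50.

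Of 7 genes around NCAM1, 0 were called, beside 2.57% of all genes, and the median was -0.16. Of the enzymes that add polysialic acid to NCAM1, neither of them called, St8sia2 measured 53.1, 1.28 and 3.23 RPM in normocapnia and 14.4 to 38.2 RPM in hypercapnia (1.65, SE 1.17), and St8sia4 63.5, 181 and 107 RPM against 62.4 to 72.2 RPM (-0.68, SE 0.35). Their r with Pax7 was 0.903 and -0.633, and without NC1 the first was called higher and the second lower, beside 6.25% and 2.07% of all genes. Ptpra, a phosphatase that binds NCAM1 and the most abundant of the list, gave -0.31 (SE 0.34).

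Of 14 neighbours of Peg3 and other imprinted genes, 13 were in the table and 0 were called, beside 2.57% of all genes. Their median was -0.17, or 0.80 without NC1. NC1 was the highest library for 10 of the 11 averaging 1 RPM or more, beside 3927 of 12504 such genes in the table. Zim1, next to Peg3 on its chromosome, was 67.8 RPM in NC1, 5.51 in NC2 and 7.85 in NC3 against 2.05 to 10.9 RPM in hypercapnia (-1.48, SE 0.99, or -0.42 without NC1), and Usp29, another neighbour, had at most 0.178 RPM. Igf2r, the most abundant, gave -0.26 (SE 0.15) and Ndn 0.95 (SE 0.75). Without NC1, Mest and Grb10 were called higher, as Peg3 was, beside 6.25% of all genes.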

How the data were processed

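The authors made Ion AmpliSeq Transcriptome libraries (1 amplicon a gene) from RNA of sorted Pax7-GFP cells and deposited 1 table of RPM, reads scaled to 1000000 reads assigned to the panel. The labels name the Transcriptome Analysis Console. The aligner and the genome build were not given in the sources used here. Groups came from the sample labels. Whole reads were recovered from the RPM steps (100% of values whole within 0.05 reads), and 2443 genes were at 0 in all libraries. All 23930 genes were fitted on log2(RPM + 1) with limma 3.58.1 without a filter, and called at p below 0.05 with a fold above 1.5. Fold changes on this scale understate those of low genes.

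Member levels were set against Pax7 as log2 ratios and by correlation, with exact permutation tests (scipy 1.17.1). Alternatives were other pseudocounts (0.1 and 5 RPM), removal of genes averaging under 1 RPM, scaling by the median of ratios, a trended prior, edgeR 4.0.16 and DESeq2 1.42.0 on recovered reads, Pax7 as a covariate, the replicate block and each library left out. Leaving out the libraries farthest from the Pax7 median was added to the listed alternatives after the data were seen. The fits were tested on simulated data. The members and gene lists were chosen with earlier results of these data known. Named genes are the members, Pax7, each list's called genes, its 3 smallest p and its most abundant gene, the defining and most abundant gene of each marker list, and the 3 genes most like each member, and others named beside these were chosen after their values were seen. A few genes that this rule names are not reported here. Whether replicate numbers pair the samples is not settled by the values, and the main fit used no pairing. Poisson and binomial intervals cover counting error only, and limma intervals the spread between libraries.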

Additional observations from a re-analysis of the deposited data

How the results depend on the processing

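The 6 fold changes, of the members and Pax7, were recomputed under 17 alternatives each, except that Pax7 had no fit with itself as covariate. Vcam1, Ncam1, Peg3 and Pax7 turned below 0 with edgeR (filtered -0.23, -0.69, -0.21 and -0.84, unfiltered -0.26, -0.73, -0.23 and -0.88) and with DESeq2 (-0.27, -0.73, -0.25 and -0.87), and with Pax7 as a covariate Vcam1 gave -0.0664 and Ncam1 -0.000262; the cause was not tested. Leaving out 1 library gave -1.0 to 0.471 for Calcr, -2.65 to -0.84 for Chodl, -0.41 to 1.38 for Vcam1, -0.36 to 2.22 for Ncam1, -0.0865 to 1.54 for Peg3 and -0.36 to 2.47 for Pax7. It gave 0 to 3 members called and 376 to 1990 genes of the table, against 615 with all libraries. Of those 615, 343 were higher and 272 lower, while edgeR gave 294 higher and 508 lower, and limma without NC3 235 higher and 381 lower. Unfiltered edgeR called 1049 genes, DESeq2 1304 and the fit with Pax7 as covariate 1048. Median-of-ratios scaling moved the median over genes averaging 1 RPM or more from 0.161 to 0.0445.

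Relative to Pax7, leaving out 1 library gave -2.0 to -0.486 for Calcr, -3.32 to -1.09 for Chodl, -1.10 to 0.0462 for Vcam1, -0.256 to 0.018 for Ncam1 and -0.935 to 0.277 for Peg3. Pearson's r with Pax7 then ran over 0.669 to 0.919 for Calcr, 0.174 to 0.847 for Chodl, 0.971 to 0.992 for Vcam1, 0.995 to 0.999 for Ncam1 and 0.962 to 0.987 for Peg3. For Calcr r was 0.722 with a pseudocount of 0.1 RPM (exact permutation p = 0.0704). It was 0.830 without the 2 libraries farthest from the Pax7 median (exact permutation p = 0.125). Without NC1 it was 0.669 (exact permutation p = 0.151) and without HC3 0.818 (exact permutation p = 0.05). None of these p-values was below 0.05, and without HC4 r was 0.83 (exact permutation p = 0.0472). The Calcr difference relative to Pax7 was -1.71 with a pseudocount of 0.1 RPM and -0.684 with 5 RPM.

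Counts called in the lists are small and moved with the setting. Leaving out 1 library gave 0 to 5 for other satellite cell genes, 0 to 4 for myogenic activation, 0 to 2 for the calcitonin receptor axis, 1 to 4 for the Sprouty axis, 1 to 3 for VCAM1 partners, 0 to 2 for NCAM1 partners and 0 to 2 for imprinted genes. Other satellite cell genes gave 1 with median-of-ratios scaling, both edgeR fits and DESeq2, and 6 with Pax7 as covariate. Myogenic activation gave 1 with median-of-ratios scaling, unfiltered edgeR, DESeq2 and the covariate. The calcitonin axis gave 0 with either other pseudocount, the filter, edgeR, DESeq2 and the block, and 2 with the covariate. The Sprouty axis gave 0 with a pseudocount of 5 RPM and 2 with median-of-ratios scaling, edgeR, DESeq2, the covariate and the block. VCAM1 partners gave 2 with median-of-ratios scaling, filtered edgeR and DESeq2, and 0 with the block. NCAM1 partners gave 1 with edgeR, DESeq2 and the covariate. Imprinted genes gave 1 with filtered edgeR, 4 unfiltered, 3 with DESeq2 and 2 with the covariate.

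The values do not settle whether the replicate numbers pair the samples. Deviations of same-numbered libraries from their group means correlated at -0.349, 0.503 and -0.0443, and those of differently numbered libraries at -0.42 to 0.452. With the replicate block 598 genes were called against 615, and 0 members. The depth limits Calcr, whose values in 4 libraries rest on 2 to 16 reads.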
